A study of Homo sapiens with 6 samples.

Results

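The 39 human HOX genes were followed in PA1 cells, an established line derived from an ovarian teratocarcinoma, after reduction of the transcription factor SOX2. Members were all gene symbols of the count table made of HOX, a cluster letter A to D and a paralogue number, 39 of 59653 symbols. Of these, 11 belong to HOXA, 10 to HOXB, 9 to HOXC and 9 to HOXD. Wild-type PA1 cells in adherent culture received a negative control small interfering RNA (siRNA) or siRNA against SOX2. Whether the 2 siRNAs to SOX2 named in the labels were used as a pool is not given there. After 24 h the cells were moved to dishes coated with poly-HEMA, which keeps cells from attaching, and RNA was taken 72 h later. Each group had 3 libraries, numbered 1 to 3, all from the same line and all grown without anchorage at harvest. The labels do not say whether the libraries came from separate cultures, so p-values measure the spread between these libraries, which may be technical.

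HOX genes encode homeodomain transcription factors that give cells their position along the head-to-tail axis. In mammals they lie in 4 clusters, and genes at the same place in different clusters are paralogues, numbered 1 to 13 from the anterior to the posterior end. Low-numbered genes are switched on first and furthest forward, in the hindbrain and pharyngeal arches, and high-numbered ones last, in the tail, limbs and genital tract. In undifferentiated pluripotent and embryonal carcinoma cells the clusters are largely held silent by Polycomb proteins, and retinoic acid, Wnt and FGF signals open them. The proteins bind DNA together with cofactors of the TALE class, such as PBX and MEIS.

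The libraries held between 25152313 and 32753184 counts. A floor of 3 counts, below which a gene was not distinguished from none, was worth 0.0909 to 0.12 CPM (counts scaled to library size). SOX2 itself had 6647 to 8093 counts in the control libraries and 1513 to 1776 after SOX2 siRNA, 20.5% of the control level. Of the 10 embryonal carcinoma markers listed, POU5F1, SALL4, LIN28A, LIN28B, DNMT3B and PODXL were abundant. DPPA4 and L1TD1 were low, at means of 3.05 and 1.79 CPM in control, and TDGF1 and ZFP42 never exceeded 3 counts. Of the 8 tested, 4 were called higher after SOX2 siRNA by edgeR, POU5F1, LIN28A, LIN28B and DNMT3B. PODXL was called lower, at 51% of control. Of 17 markers of other cell types, 8 never exceeded 3 counts, and KRT14, CGA and HBG1 were at 0. The summed level of those 17 ran from 79.3 to 80.2 CPM in control and from 53.3 to 56.5 CPM after SOX2 siRNA. Most of it was PECAM1, with means of 64.2 CPM in control and 43.7 CPM after SOX2 siRNA. Of 7 tested markers 3 were lower, the endothelial genes PECAM1, CDH5 and VWF. Their part in the HOX results was not tested. Among all tested genes, 14.8% were called higher and 13.4% lower by edgeR. The albumin gene ALB varied between libraries whatever the group, at 2.06, 0.878 and 0.104 CPM in the control libraries and 1.89, 0.0619 and 0.937 CPM in the SOX2 siRNA libraries, in replicate order.

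HOX transcripts were scarce and came mostly from the anterior part of HOXA. All HOX genes together made up 20.9 ± 0.374 CPM in control and 17.8 ± 1.36 CPM after SOX2 siRNA (SD, n = 3). The HOXA cluster supplied 83.7% ± 3.22 of HOX counts in control and 85.5% ± 3.46 after SOX2 siRNA (SD, n = 3). HOXD supplied 12.3% ± 1.76 and 8.52% ± 1.92, and HOXD13 gave 299 of its 360 counts over the 6 libraries. HOXB and HOXC supplied between 0.664% and 5.86% each in any library. Of the 2924 counts of HOXA, the posterior genes HOXA9, HOXA10, HOXA11 and HOXA13 held 62. At the posterior end of the numbering HOXD13 stood alone.

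Of the 39 genes, 7 passed the filter on low counts, which asks for about 10 counts in 3 libraries, 6 of them in HOXA and 1, HOXD13, in HOXD. Each of them had at least 12 counts in every library. Of the 32 that did not pass, 13 had at most 3 counts in every library and none exceeded 9 counts in any. By edgeR's quasi-likelihood test and p-values adjusted by Benjamini-Hochberg across the 17592 tested genes, 2 of the 7, HOXD13 and HOXA2, were lower after SOX2 siRNA at an adjusted p under 0.05. Among all tested genes 28.2% were called, 13.4% as lower and 14.8% as higher. With only 7 genes tested, the count of 2 is not set apart from that background. No HOX gene was called higher by edgeR, DESeq2 or limma-voom, and 0 were higher at an unadjusted p under 0.05 by any of these tools. The median log2 fold change of the 7 was -0.32, against -0.00085 over all tested genes. For 4 of the 7 there was no overlap between the groups (among them HOXA2, HOXA7 and HOXD13), where 41.8% of all tested genes did not overlap.

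Compared per kilobase of exon (RPKM, computed from CPM and the exon length in GENCODE 29), HOXA7 stood in control at 1.29 ± 0.162 RPKM (SD, n = 3), HOXA3 at 1.02 ± 0.0689 RPKM and HOXD13 at 0.986 ± 0.196 RPKM. HOXA4, HOXA2 and HOXA5 had 0.524 ± 0.122, 0.498 ± 0.075 and 0.379 ± 0.0594 RPKM. The control ranges of HOXA3 and HOXD13 overlapped, as did those of HOXA4 and HOXA2 and those of HOXA2 and HOXA5, so these neighbours in the order do not differ beyond their spread. The annotation used in counting is not given, so the order between genes also depends on the exon lengths taken here. After SOX2 siRNA, HOXD13 stood at 0.53 ± 0.113 RPKM, below HOXA3 at 0.985 ± 0.0824 RPKM in each library. The highest untested member, HOXA6, averaged 0.144 RPKM over the 6 libraries.

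HOXD13, the most posterior gene of its cluster and known for patterning the digits and the genital tubercle, was the member with the smallest p-value. It lies on chromosome 2 at 176092891 to 176095938 on the plus strand (GENCODE 29, GRCh38), at the outer end of HOXD. The 300 bases around its RefSeq start, chr2:176092471-176092770 (GRCh38.p14, plus strand), are shown because the other HOX genes of its cluster were near-silent. Capitals would mark the letters ACAAT or ACAAAG on either strand, the cores of sites bound by SOX proteins, and this window holds neither.
HOXD13: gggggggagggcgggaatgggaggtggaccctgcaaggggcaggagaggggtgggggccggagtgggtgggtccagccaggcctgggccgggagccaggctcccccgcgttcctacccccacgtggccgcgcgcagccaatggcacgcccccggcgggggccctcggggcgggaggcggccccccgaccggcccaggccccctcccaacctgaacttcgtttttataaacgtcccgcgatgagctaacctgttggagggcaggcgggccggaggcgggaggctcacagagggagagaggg
This stretch is 74% G or C and holds 24 CG dinucleotides, where the median of all 34943 distinct RefSeq windows of this length is 58.7% and 14. The median of the HOX windows is 58% and 22.5, so the CG count of HOXD13 is close to that of HOX genes in general.

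The control libraries held 64, 68 and 57 HOXD13 counts, in replicate order, and the SOX2 siRNA libraries 27, 43 and 40. In CPM these were 1.94, 2.71 and 1.97 against 0.894, 1.33 and 1.34. Every SOX2 siRNA library lay below every control library, with SOX2 siRNA replicate 1 lowest and control replicate 2 highest. The mean fell from 2.21 ± 0.438 to 1.19 ± 0.254 CPM (SD, n = 3), 53.8% of control, a log2 fold change of -0.88 with SE 0.22 and adjusted p = 0.00568 by edgeR. In bulk RNA, fewer cells carrying the transcript and less transcript per cell cannot be told apart, here and for every gene below. No exon of HOXD13 overlaps another annotated gene. The other 8 HOXD genes together had 16, 8 and 8 counts in control and 9, 9 and 11 counts after SOX2 siRNA. These 8 were near the limit of detection in both groups.

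HOXA2, which gives the second pharyngeal arch its identity and acts in the hindbrain, was the other member called lower. It lies on chromosome 7 at 27100354 to 27102811 on the minus strand (GENCODE 29, GRCh38), and its exons overlap no other annotated gene. Its RefSeq start window, chr7:27102634-27102933 (GRCh38.p14, minus strand), is shown to set it beside that of HOXD13; here the capitals mark 1 match to ACAAT, read on the reverse strand as ATTGT.
HOXA2: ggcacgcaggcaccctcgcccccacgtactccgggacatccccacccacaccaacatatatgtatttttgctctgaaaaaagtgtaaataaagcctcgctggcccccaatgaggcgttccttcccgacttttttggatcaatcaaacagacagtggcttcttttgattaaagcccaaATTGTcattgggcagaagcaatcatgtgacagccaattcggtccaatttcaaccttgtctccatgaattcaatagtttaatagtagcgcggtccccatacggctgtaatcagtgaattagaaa
It is 46.3% G or C with 11 CG dinucleotides, so the promoters of the called members differ in base composition. Of all distinct RefSeq windows of this length, 27.4% hold ACAAT, 16.1% hold ACAAAG and 37.6% hold either, on either strand. RefSeq windows were found for 20 HOX genes, 5 of them tested members, and 11 of the 26 distinct windows of these genes (42.3%) hold either set of letters; HOXC4 and HOXC5 share 1 window. A match in these letters is a description and not evidence of binding.

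HOXA2 had 34, 35 and 36 counts in control and 28, 12 and 20 counts after SOX2 siRNA. The SOX2 siRNA libraries were all lower but spread widely, at 0.928, 0.371 and 0.669 CPM, against 1.03, 1.4 and 1.25 CPM in control. The mean fell from 1.22 ± 0.184 to 0.656 ± 0.278 CPM (SD, n = 3), a log2 fold change of -0.90 with SE 0.3 and adjusted p = 0.0335 by edgeR. This call was less secure than that of HOXD13. It was lost with DESeq2 (adjusted p = 0.105), with robust=FALSE in edgeR (0.0551), and when control replicate 2 or 3 or SOX2 siRNA replicate 2 or 3 was left out (edgeR adjusted p = 0.133, 0.0945, 0.162 and 0.0589). Without SOX2 siRNA replicate 2 the log2 fold change was -0.61.

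The other tested members described here belong to the anterior and middle part of HOXA and were not called. HOXA3 acts in the third pharyngeal arch and in the thymus and parathyroid glands. It had 4.42, 4.11 and 4.7 CPM in control and 4.41, 3.83 and 4.49 CPM after SOX2 siRNA. These overlapped, with a log2 fold change of -0.06 (SE 0.124; edgeR adjusted p = 0.776).

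HOXA4, a gene of the neck region of the axis, had 0.757, 1.16 and 0.83 CPM in control and 0.994, 0.588 and 0.603 CPM after SOX2 siRNA (edgeR: log2 fold change -0.32, SE 0.291, adjusted p = 0.467). HOXA5, needed for lung and airway development, had 0.757, 0.559 and 0.623 CPM in control and 0.629, 0.773 and 0.636 CPM after SOX2 siRNA (edgeR: log2 fold change 0.06, SE 0.277, adjusted p = 0.899). Both overlapped between groups and rested on 14 to 30 counts per library. HOXA7, a gene of the thoracic region, had 102, 88 and 79 counts in control and 72, 80 and 67 after SOX2 siRNA. Its means were 3.11 ± 0.39 and 2.37 ± 0.117 CPM (SD, n = 3), with no overlap, a log2 fold change of -0.39 (SE 0.155) and an edgeR adjusted p of 0.0727 that missed the threshold. The plot of the tested members by library sets these values side by side.

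**Figure D1:**
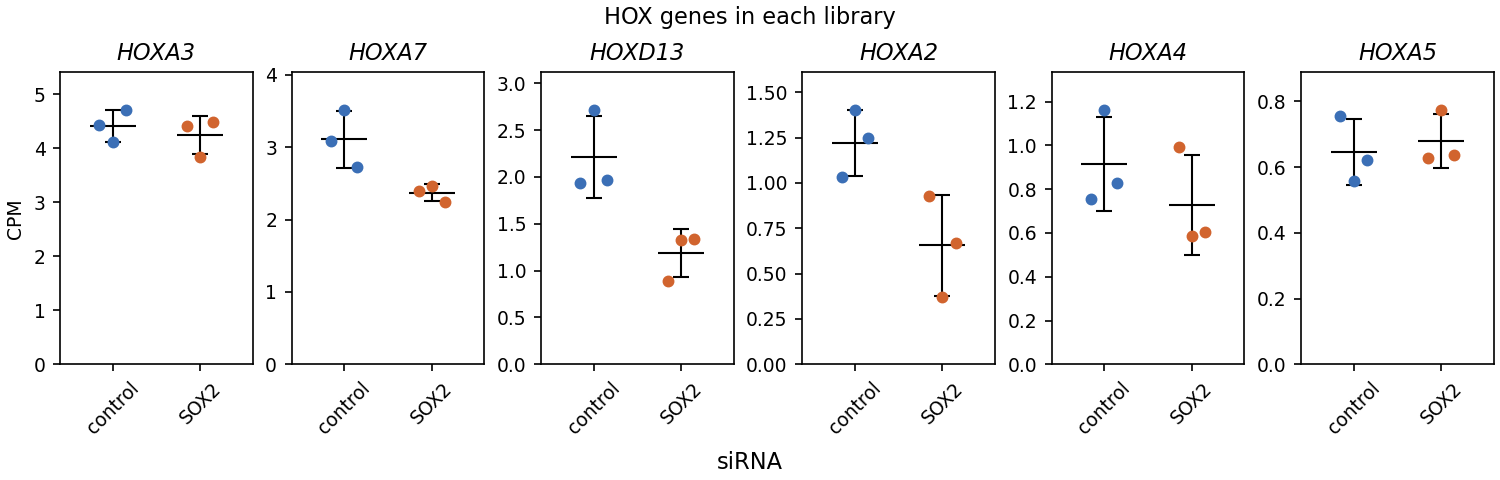
CPM of 6 tested HOX genes in each library (points; control siRNA blue, SOX2 siRNA orange), with the mean as a line and 1 SD as a bar (n = 3); each panel has its own axis from 0. The orange points lie below all blue points for HOXA7, HOXD13 and HOXA2, with adjusted p under 0.05 for HOXD13 and HOXA2.

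Exons of several HOXA genes overlap those of genes on the opposite strand: HOXA3 and HOXA4 with HOXA-AS2 and HOXA-AS3, and HOXA7 with HOXA-AS3. The use of strand in counting is not given in the sources used here, so reads of these pairs may not have been told apart. HOXA-AS3 itself was listed with at most 3 counts in every library. HOXA3 and HOXA4 also share exons with other annotated genes on their own strand.

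The 32 members that did not enter the test summed to 2.3, 1.6 and 1.38 CPM in the control libraries and 2.39, 1.02 and 2.34 CPM in the SOX2 siRNA libraries. The groups overlapped. Those that stayed at 3 counts or fewer included HOXA11, HOXB4, HOXC5, HOXC12, HOXD10 and HOXD12. Those that reached 4 to 9 counts in at least 1 library included HOXA6, HOXA10, HOXB3, HOXB9, HOXC10, HOXD3 and HOXD9, and none of the 32 exceeded 3 counts in every library. The libraries with the highest sums were control replicate 1 and SOX2 siRNA replicates 1 and 3. They were also the 3 highest for ALB, and SOX2 siRNA replicate 2 was lowest for both the sum and ALB. ALB was picked from the listed markers after its values were seen. AFP had the same 3 highest libraries. APOA1 did not, with 1.7, 1.48 and 1.31 CPM in control and 1.03, 1.02 and 1.41 CPM after SOX2 siRNA. Nor did PECAM1, CDH5 and VWF, which were higher in every control library than in any SOX2 siRNA library. The part of RNA from other cells in these counts was not tested. When every gene with at least 1 count was fitted, 0 of the 32 were called by edgeR, where 15.3% of all 33956 genes were, and 0 had an unadjusted p under 0.05. The smallest unadjusted p-values were those of HOXD11, HOXD10 and HOXB2 (edgeR, 0.0553, 0.0591 and 0.0617). HOXB2 was the 1 untested member whose groups did not overlap, with 3, 4 and 4 counts in control and 1, 2 and 0 after SOX2 siRNA. At these counts a fall or a small rise in most HOX genes was not detectable, whereas a rise such as that of EVX1, given below, from 2 to 4 counts in control to 33 to 42 counts, could be.

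Counts in HOXB and HOXC were unevenly spread over libraries. HOXB held 26, 11 and 7 counts in control and 13, 5 and 32 after SOX2 siRNA. SOX2 siRNA replicate 3 alone gave 17 of the 25 counts of HOXB5, HOXB6 and HOXB7, neighbouring genes picked out after their values were seen. HOXC held 17, 11 and 4 counts in control and 28, 4 and 17 after SOX2 siRNA. SOX2 siRNA replicate 1 gave 19 of the 43 counts of HOXC8 to HOXC11, also picked out afterwards, where control replicate 3 and SOX2 siRNA replicate 2 gave 0. Both clusters overlapped between groups, at 0.49 ± 0.276 and 0.552 ± 0.47 CPM for HOXB and 0.364 ± 0.199 and 0.54 ± 0.403 CPM for HOXC (SD, n = 3). The summed HOXA genes lay at 16.9, 17.4 and 18.2 CPM in control and 16.3, 14.4 and 14.9 CPM after SOX2 siRNA, and the summed HOXD genes at 2.42, 3.03 and 2.25 against 1.19, 1.61 and 1.71 CPM. These sums did not overlap between groups and carry no test of their own.

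**Figure D2:**
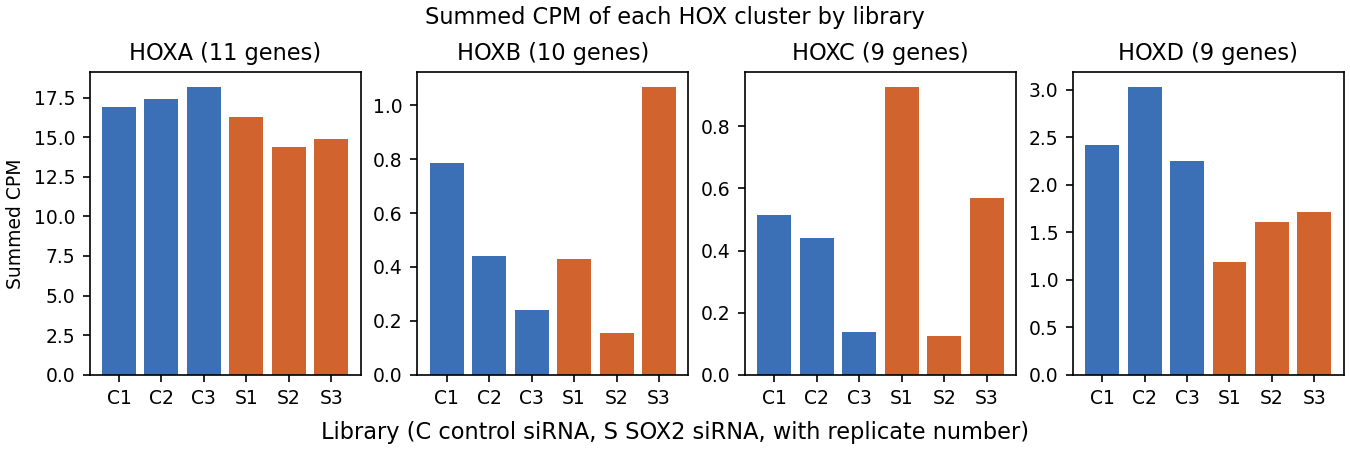
Summed CPM of each HOX cluster in each library (C control siRNA, S SOX2 siRNA, with the replicate number); each panel has its own axis from 0. HOXA and HOXD bars are lower in all 3 SOX2 siRNA libraries than in any control library, while HOXB and HOXC bars vary between single libraries, up to 1.07 CPM for HOXB in SOX2 siRNA replicate 3.

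By paralogue number, groups 2, 3, 7 and 13 held 179, 815, 496 and 333 counts in all 6 libraries. In each of these groups a single member supplied most counts: HOXA2 gave 165 of 179, HOXA3 776 of 815, HOXA7 488 of 496 and HOXD13 299 of 333. Groups 6, 8, 9, 10, 11 and 12, none with a tested member, held 53, 18, 62, 49, 20 and 7 counts.

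The non-coding transcripts of the clusters were read next. Of 24 listed, 11 had 0 counts in every library, among them HOTTIP and the precursors of miR-10 and miR-196, although a library of polyadenylated RNA does not measure mature microRNAs. HOTAIR, the HOXC transcript known for binding chromatin regulators, had at most 3 counts. Only 3 entered the test, and 2 of these were lower by edgeR, HOXA-AS2 and HOTAIRM1; 0 were higher by edgeR, DESeq2 or limma-voom or at an unadjusted p under 0.05. The median log2 fold change of the 3 was -0.75. The third, HAGLR, passed the filter on low counts only through the control libraries, where it is high, so this median is in part set by the filter. With only 3 tested, the count of 2 is not set apart from the 13.4% of all tested genes called lower.

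HOXA-AS2, transcribed against HOXA3 and HOXA4, had 3.21, 3.11 and 2.35 CPM in control and 2.09, 1.7 and 1.37 CPM after SOX2 siRNA. All SOX2 siRNA libraries lay below all control libraries, with a log2 fold change of -0.75 (SE 0.192; edgeR adjusted p = 0.00708). HOTAIRM1, an antisense transcript of the HOXA cluster known from retinoic acid-induced myeloid differentiation, had 7.54, 7.82 and 6.61 CPM in control and 5.73, 6.12 and 4.32 CPM after SOX2 siRNA. Its groups did not overlap either, with a log2 fold change of -0.44 (SE 0.125; edgeR adjusted p = 0.0145). That call was lost when control replicate 1 or 2 or SOX2 siRNA replicate 3 was left out (edgeR adjusted p = 0.0626, 0.0828 and 0.0653). HAGLR, a HOXD transcript whose exons overlap those of HOXD1 and HOXD3 on the opposite strand, had 35, 12 and 16 counts in control and 12, 8 and 16 after SOX2 siRNA. It overlapped between groups (edgeR: log2 fold change -0.86, SE 0.375, adjusted p = 0.104).

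Of the tested genes listed for the cluster edges, the largest change was in EVX1, a homeobox gene beyond HOXA13 that acts in the posterior primitive streak and in spinal interneurons. It lies on chromosome 7 at 27242700 to 27250493 on the plus strand (GENCODE 29, GRCh38), 42.6 kb from the HOXA13 start. EVX1 had 4, 2 and 2 counts in control and 42, 41 and 33 counts after SOX2 siRNA, every one of the latter far above the former. It rose from 0.0901 ± 0.0275 to 1.25 ± 0.144 CPM (SD, n = 3), by edgeR a log2 fold change of 3.71 with SE 0.359 and adjusted p = 4.31e-07. The control counts were near the floor of 3, so the size of the rise is loosely set. EVX1 passed the filter on low counts only through the SOX2 siRNA libraries. From the summed counts of 8 and 116 the ratio was 13.6, with an exact 95% interval of 6.7 to 32.4 that covers counting error only. HOXA13, its nearest HOX neighbour, had 3, 2 and 4 counts in control and 3, 1 and 1 after SOX2 siRNA, and did not enter the test.

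The EVX1 start window, chr7:27242552-27242851 (GRCh38.p14, plus strand), is shown beside those of the HOX genes called lower; it holds neither ACAAT nor ACAAAG.
EVX1: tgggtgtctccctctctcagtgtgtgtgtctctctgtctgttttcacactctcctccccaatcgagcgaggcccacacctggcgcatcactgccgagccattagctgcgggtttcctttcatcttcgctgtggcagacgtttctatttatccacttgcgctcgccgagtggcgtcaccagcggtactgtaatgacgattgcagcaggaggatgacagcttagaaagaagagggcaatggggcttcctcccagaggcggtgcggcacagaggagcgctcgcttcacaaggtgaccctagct
A pair of transcripts next to EVX1, chosen after their values were seen, were too scarce to be tested. The non-coding gene AC004080.1 had 0, 0 and 1 counts in control and 5, 10 and 5 after SOX2 siRNA, a ratio of 18.8 with an exact 95% counting interval of 3.01 to 780. EVX1-AS had 0, 0 and 2 counts against 3, 5 and 2, and its exons overlap EVX1 on the opposite strand. On the HOXA side of this stretch, HOXA9, HOXA10, HOXA11 and HOXA13 were too scarce to be tested, so they could not be called. None of the tested HOXA genes was called higher. The profile along the cluster shows the mean levels.

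**Figure D3:**
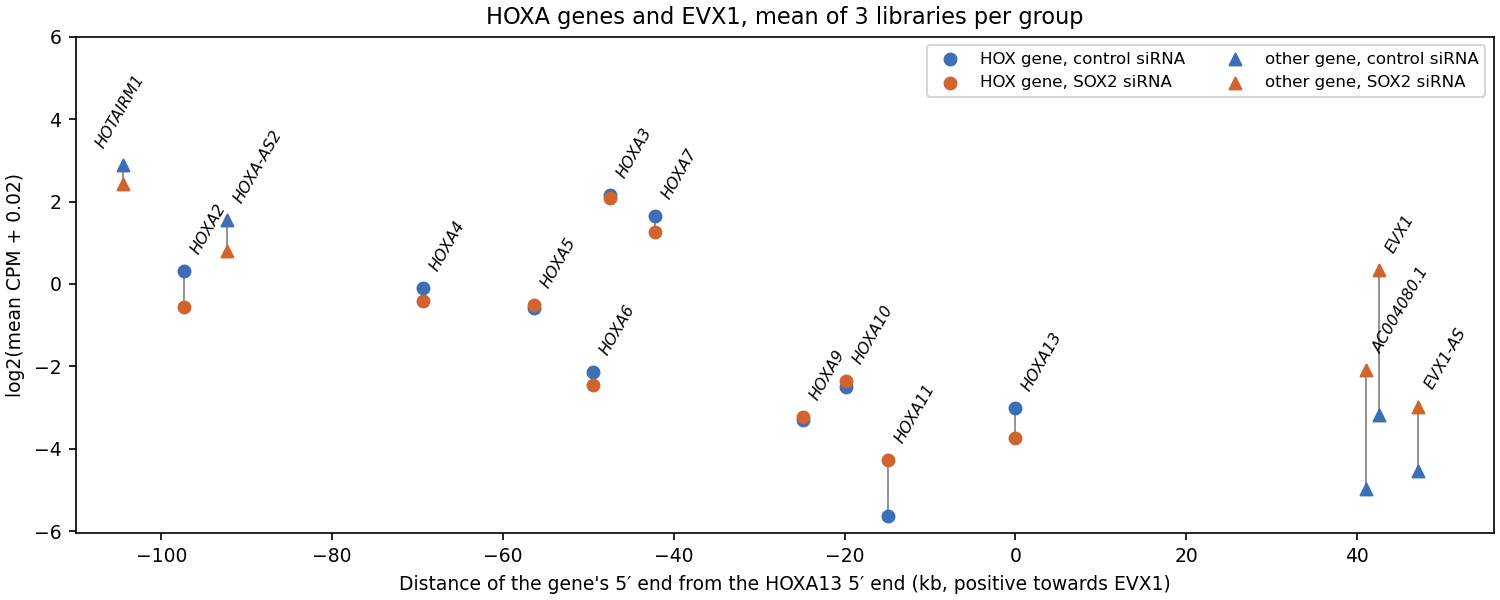
Mean level on the scale log2(CPM + 0.02) against the distance of each gene's 5′ end from that of HOXA13, for HOX genes (circles) and other genes with more than 3 counts in some library (triangles), control siRNA blue and SOX2 siRNA orange, 3 libraries each. HOXA3 and HOXA7 lie well above HOXA9 to HOXA13, and EVX1 at 42.6 kb is the gene with the widest gap among those tested, from 0.0901 to 1.25 CPM.

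Of the 20 genes listed for the edges of the clusters, 15 were tested, with 3 higher and 4 lower by edgeR and a median log2 fold change of -0.03. Over all tested genes, 14.8% were called higher and 13.4% lower. TTLL6, listed for the far side of HOXB and chosen after its value was seen, had a log2 fold change of -0.87 (edgeR adjusted p = 0.0348), and the other 5 called genes moved less than that. With DESeq2, 2 were higher and 3 lower. JAZF1, beyond EVX1 on chromosome 7, had a log2 fold change of 0.54 (SE 0.0837), SKAP2, on the anterior side of HOXA, of -0.36 (SE 0.0556) and CBX5, a heterochromatin protein gene near HOXC, of -0.15 (SE 0.0339), with edgeR adjusted p of 8.95e-05, 1.03e-04 and 0.00255. SKAP1 and PRAC1, listed for the HOXB cluster, had 0 counts.

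Genes that act with or on the HOX clusters changed in both directions. Over all tested genes, 14.8% were called higher and 13.4% lower by edgeR. These shares are the background for the counts of each list below. The lists were chosen with earlier results of these data known, so their counts are descriptions. All 11 listed TALE genes were tested, 4 higher and 3 lower by edgeR, with a median log2 fold change of 0.07. PKNOX2, a partner of PBX proteins, rose from 9.33, 10.1 and 9.34 to 31.2, 31.8 and 29.9 CPM (edgeR: log2 fold change 1.69, SE 0.0642, adjusted p = 1.86e-12). PBX3, which binds DNA jointly with HOX proteins, rose from 46.9 ± 1.21 to 79.6 ± 2.25 CPM (n = 3, SD; edgeR log2 fold change 0.76, adjusted p = 4.10e-10). MEIS1, a HOX cofactor best known from leukaemia, fell from 18.2, 20.2 and 16.6 to 8.55, 8.91 and 8.97 CPM (edgeR: log2 fold change -1.05, SE 0.0808, adjusted p = 2.26e-08). TGIF1, a TALE repressor, had a log2 fold change of -0.21 (edgeR adjusted p = 0.00154).

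Of 20 listed CDX and posterior signalling genes, 12 were tested, 7 higher and 4 lower by edgeR, with a median log2 fold change of 0.30. CDX proteins are direct activators of HOX genes of the trunk. CDX2 fell from 11.9, 10.7 and 11.7 to 3.84, 3.59 and 4.38 CPM (edgeR: log2 fold change -1.54, SE 0.102, adjusted p = 3.37e-09). Its paralogue CDX1, chosen after its values were seen, rose from 4.78 ± 0.334 to 9.53 ± 0.617 CPM (n = 3, SD; edgeR SE of the log2 fold change 0.0995, adjusted p = 6.31e-07). NKX1-2, a marker of the caudal epiblast, and the Wnt ligand gene WNT8A were lower, with log2 fold changes of -1.08 and -1.28 (edgeR adjusted p = 2.72e-11 and 6.64e-09). FGF8, TBX6, LFNG and WNT3, chosen after their values were seen, were called higher (edgeR log2 fold changes 2.67, 1.63, 0.67 and 0.38). Chosen in the same way, GREB1 was called higher (0.22) and WNT5A lower (-0.31). FGF8 had 17, 10 and 8 counts in control and 73, 80 and 84 after SOX2 siRNA. It passed the filter on low counts only through the SOX2 siRNA libraries, where it is high. CYP26A1, also called higher, is given with the retinoic acid genes. TBXT, which encodes brachyury, had 0 counts in every library, and CDX4, MSGN1, FGF4 and WNT3A had at most 3.

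Of 18 genes of the retinoic acid axis, 15 were tested, 6 higher and 2 lower by edgeR (4 and 2 by DESeq2), with a median log2 fold change of 0.08. RDH10, which makes retinal from retinol, rose from 19.3, 19.5 and 20.1 to 93.8, 99.4 and 105 CPM (edgeR: log2 fold change 2.34, SE 0.0528, adjusted p = 2.26e-15). CYP26A1, which breaks retinoic acid down and stands in the posterior list too, rose from 0.424, 0.399 and 0.45 to 5.47, 5.38 and 4.79 CPM (edgeR: log2 fold change 3.60, SE 0.182, adjusted p = 8.64e-11). CRABP2, a retinoic acid carrier, and RARB, a receptor gene that is itself a retinoic acid target, fell, with log2 fold changes of -0.55 and -0.86 (edgeR adjusted p = 3.60e-09 and 1.70e-04).

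Of 16 hindbrain and segment genes, 9 were tested, 2 higher and 4 lower by edgeR, with a median log2 fold change of -0.33. EPHA4, which keeps hindbrain segments apart, fell from 53.8 ± 1.42 to 20.5 ± 0.848 CPM, and GBX2, a gene of the anterior hindbrain, from 30.5 ± 1.17 to 17.5 ± 0.587 CPM (n = 3, SD; edgeR log2 fold changes -1.39 and -0.81, adjusted p = 1.28e-12 and 1.01e-08). EGR2, which activates HOXA2 in the hindbrain and was chosen after its values were seen, fell from 2.99 ± 0.198 to 1.14 ± 0.0941 CPM (n = 3, SD; edgeR log2 fold change -1.39, adjusted p = 1.22e-05). The homeobox genes IRX3 and MEOX1 were higher, with log2 fold changes of 0.52 and 2.75 (edgeR adjusted p = 6.12e-06 and 1.03e-08).

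All 27 listed Polycomb and trithorax genes were tested, 6 higher and 6 lower by edgeR, with a median log2 fold change of 0.01. JARID2, an accessory subunit of a Polycomb repressive complex that methylates histones, fell (log2 fold change -0.36, SE 0.0367), while PHF19 and MTF2, other accessory subunits of that complex, and PHC2, a subunit of the ubiquitin-adding Polycomb complex, rose (0.52, 0.24 and 0.32). Their edgeR adjusted p-values were 9.42e-07, 1.07e-06, 1.61e-04 and 1.03e-05. The plot of fold changes sets the HOX genes beside these groups.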

How the data were processed

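Messenger RNA was sequenced in 6 libraries of PA1 cells, 3 with control siRNA and 3 with SOX2 siRNA, prepared with the KAPA mRNA HyperPrep chemistry per the labels' protocols. The authors' file gives unnormalized read counts, 1 row for each symbol. The submitters' processing notes name bcl2fastq 2.20.0, STAR 2.7.3a, Salmon 0.14.1, DESeq2 1.28.1 and GRCh38.p13, without roles; annotation and strand setting are not given in the sources used here. Columns were matched by the identifier in each library's description.

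The 39 HOX genes, the 7 lists of related genes and the marker lists were chosen with earlier results of these data known. Fits used R 4.3.3 with edgeR 4.0.16 (filterByExpr with minimum count 10, TMM, glmQLFit with robust=TRUE, glmQLFTest), p-values adjusted by Benjamini-Hochberg across every tested gene and called under 0.05. Tested genes held 99.9% of counts. Intervals are exact at 95% and, like the floor of 3 counts, cover counting error only, since PCR copies are not independent molecules. Exact permutation of 3 against 3 libraries cannot give p below 0.1, so it was not used. Alternatives were other scalings and filters, DESeq2 1.42.0, limma-voom (limma 3.58.1), robust=FALSE, the replicate block and each library left out. The fit was also run on simulated counts with 200 changed genes. In the data 4964 genes were called, so that run does not measure error rates for the data.

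By rule, named genes were the HOX genes, SOX2 and from each list of related genes the called genes with the smallest p, 4 at most. Other called genes of these lists are marked as chosen after their values were seen. Genes not called, such as HAGLR, HOTAIR, HOTTIP, TBXT and SKAP1, were named outside this rule with their values known. So were the marker genes, ALB among them. A tested HOX gene is not reported here; counts, medians and sums over the HOX genes include it. GENCODE 29 gave gene positions, exon lengths and overlaps, and RefSeq (GRCh38.p14) the start windows, from 250 bases before to 50 after a start. Summaries and figures used matplotlib 3.10.9, pandas 2.3.3, scipy 1.17.1 and numpy 2.4.6 under Python 3.11.15.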

Additional observations from a re-analysis of the deposited data

How the results depend on the processing

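Of the results above, the call on HOXA2 depended most on the processing. The number of HOX genes called, all of them lower, was 2 as reported and 1 with DESeq2's Wald test and with robust=FALSE, where HOXA2 lost its call. When single libraries were left out it ranged from 1 to 2; it was 1 without control replicate 2 or 3 and without SOX2 siRNA replicate 2 or 3. HOXD13 was called under all 14 alternatives, with log2 fold changes from -0.98 to -0.72 and adjusted p from 0.00124 to 0.0497. Those of HOXA2 ran from -1.23 to -0.61 and from 0.00825 to 0.162. No HOX gene was called higher under any alternative. Among uncalled members, HOXA3 changed sign without SOX2 siRNA replicate 2 (0.01, in a leave-one-out range of -0.11 to 0.01), and HOXA5 without control replicate 2 (-0.02) and without SOX2 siRNA replicate 2 (-0.04, in a range of -0.04 to 0.20). The cause was not tested.

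Over all genes the number of calls ran from 3760 to 5212; upper-quartile scaling gave 45.8% of calls as higher, where the reported scaling gave 52.4%. Deviations of same-numbered libraries correlated across genes at 0.0868, -0.0377 and -0.0311. Those of differently numbered libraries ran from -0.12 to 0.155. With 3 libraries per group this cannot settle whether the numbers pair the libraries, which the labels do not say. Under the replicate block, 5177 genes and the same number of HOX genes, 2, were called. Of 502 values for 36 single genes, 9 lost their call, 6 of HOXA2 and 3 of HOTAIRM1, and none of the called genes reversed. With at least 10 counts required in every library, EVX1 and HAGLR gave no value. Depth limits what can be said of falls and small rises in the 32 untested HOX genes, none above 9 counts in any library.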
